A study of Arabidopsis thaliana with 12 samples.

Results

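The interaction of the trb45 and clf29 mutations in Arabidopsis leaves was examined in 12 of the 12 libraries of the series, all columns of one table of read counts per gene. The libraries fall into 4 groups of 3: wild type Col-0 (WT), trb45 (the line trb45-1, mutated in TRB4 and TRB5), clf29 (a mutant of CLF) and trb45 clf29, which carries both sets of mutations and is called the combined mutant here. RNA came from mature leaves of untreated plants grown on soil under 16 h of light and 8 h of dark and harvested on day 21, and was made into stranded mRNA libraries for DNBSEQ sequencing. trb45-1 is 1 line; the second trb45 line and the trb123 mutant that the study's design names were not analysed here. The labels do not say whether replicates came from separate plants, so p-values measure the spread between these libraries, which may be technical.

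TRB proteins carry a Myb-type domain that binds telomeric repeats at chromosome ends and short telomere-like motifs, called teloboxes, in gene promoters. CLF is a histone methyltransferase subunit of Polycomb repressive complex 2 (PRC2), which deposits the repressive mark H3K27me3, and in leaves it keeps floral homeotic and flowering-time genes silent. Both are regulators of chromatin, and the study's title describes TRB4 and TRB5 as activating genes that PRC2 controls. The question of the comparison is whether losing TRB4 and TRB5 has the same effect in plants with and without CLF.

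For each gene the effect of trb45 on WT and the effect of clf29 on WT were added on the log2 scale, and the level of the combined mutant was set against that sum. The difference is called the departure: 0 when the effects add up, positive when the combined mutant lies above the sum and negative when it lies below. It is also the trb45 effect measured in clf29 plants minus the trb45 effect measured in WT plants. Levels are CPM, counts relative to the library's total after TMM scaling, and a gene was called at an adjusted p under 0.05 in edgeR's quasi-likelihood test over all genes. CPM values are not divided by gene length, so they compare a gene between libraries and not one gene with another.

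Library totals ranged from 45519206 to 54215882 counts, and 3 counts in a library correspond to 0.0519 to 0.0655 CPM. CLF transcripts stood at 10.9 to 12.5 CPM in WT, 12.6 to 15.1 in trb45, 0 to 0.209 in clf29 and 0.0997 to 0.196 in the combined mutant. TRB5 transcripts fell from 16.7 to 18.2 CPM in WT to 1.79 to 4.34 in trb45 and 1.12 to 1.72 in the combined mutant, and those of TRB4 from 4.91 to 6.20 CPM to 1.35 to 3.05 and 1.24 to 1.31. The trb45 mutants therefore retained some TRB4 and TRB5 transcript, and less of it was counted in the combined mutant; TRB5 itself was called, with a departure of −1.29 (SE 0.311, adjusted p = 0.0189), a call that was lost without trb45 replicate 3 and without the unnumbered combined-mutant library. The 31 nuclear photosynthesis genes summed to 171900 to 210800 CPM over the libraries, and the seed and root lists to at most 2.27 and 1.01 CPM. The 19 anther genes summed to 4.93 to 6.20 CPM in WT, 5.98 to 7.27 in trb45, 21.7 to 39.6 in clf29 and 4.17 to 5.27 in the combined mutant; the clf29 leaves thus held transcripts that mark another organ, and whether this reflects more cells of a type or more RNA per cell cannot be told apart in whole leaves. The part of these anther transcripts in other results was not tested.

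Of 19138 genes tested, 1429 were called (7.47%): 796 above the sum (4.16%) and 633 below it (3.31%). With library size alone as the scaling, the split turned to 606 above and 853 below. The median departure over all genes was −0.0144, and the median size among called genes was 0.688. A departure of at least 1, which is a 2-fold difference from the sum, was reached by 439 called genes, 264 above and 175 below, and one of at least 2 by 151. Leaving out 1 library gave 949 to 1926 genes; the count was 949 without WT replicate 3, 949 without the unnumbered combined-mutant library and 1926 without combined-mutant replicate 1.

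**Figure D1:**
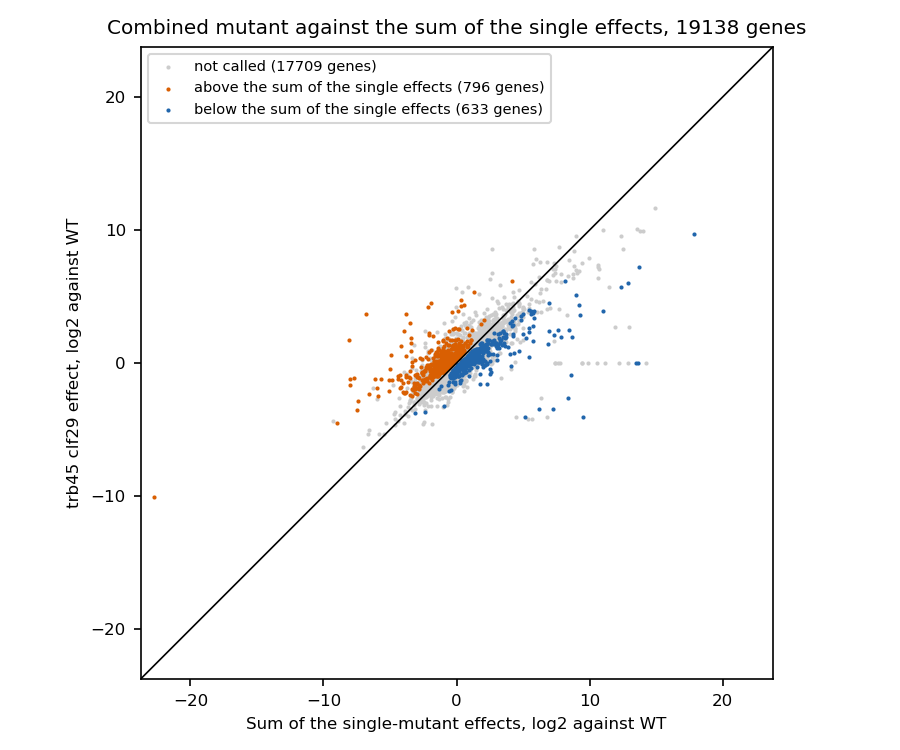
Each point is 1 of 19138 genes; the x axis is the sum of the trb45 and clf29 effects against WT (log2) and the y axis the effect of the combined mutant against WT (log2). Genes on the diagonal add up; the 796 orange genes lie above it and the 633 blue genes below it, and points far from the centre include genes with no counts in a group, whose fitted values are not bounds.

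The 4 group means of each gene were ordered and split at their largest gap, which shows which group stood apart. Among called genes, clf29 stood alone in 476 (33.3%), low in 258 and high in 218, against 17.4% of all genes tested. In these genes the clf29 level moved away from WT and the combined mutant lay on the side of WT. WT stood alone in 298 called genes (20.9%), with the 3 mutants together on one side of it, against 16.3% of all genes. The combined mutant stood alone in 256 (17.9%), high in 185 and low in 71, against 17.6% of all genes, and trb45 stood alone in 136 (9.52%) against 12% of all genes. In 97 called genes (6.79%) both single mutants lay on one side and WT with the combined mutant on the other, against 2.27% of all genes. The contrast itself favours some of these shapes, so the shares describe the called genes and are not tested.

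Among the genes below the sum, factors of ribosome assembly recurred. This group was formed after the values were seen, from words in the RefSeq product names (nucleolar, nucleolin, fibrillarin, NOP5, rRNA, ribosomal RNA, ribosome biogenesis, pre-ribosomal, U3, Brix), and it gets no test. The group also holds the ribosomal RNA loci AT2G01010, AT2G01020, AT3G41768 and AT3G41979, with departures of 0.300, 0.555, 0.239 and 0.871. It takes in TLD-domain nucleolar proteins and tRNA/rRNA methyltransferases as well, so its name is a loose label. Of its 84 tested genes, 16 were called below (19%) and 1 above, and 67 (79.8%) had a departure under 0, against 3.31%, 4.16% and 52.2% of all genes. The count below was 9 without WT replicate 3, clf29 replicate 2 or combined-mutant replicate 2, and 20 without combined-mutant replicate 1. Its median departure was −0.227. The 1 above was AT3G41979, a ribosomal RNA locus. The 316 other genes named as ribosomal proteins had a median of −0.182, with 17 called below (5.38%) and 4 above (1.27%), and 269 (85.1%) of them lay under 0. Another group formed in the same way held 244 pentatricopeptide repeat proteins. Of these, 7 were called below (2.87%) and 1 above (0.41%), but 168 (68.9%) lay under 0, with a median of −0.127. The median log2 difference of the ribosome assembly genes was 0.048 for trb45 against WT, 0.117 for clf29 against WT and −0.170 for the combined mutant against clf29.

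NUC-L1 encodes nucleolin, which acts in ribosomal RNA gene expression and pre-rRNA processing. Its level was 204, 204 and 203 CPM in WT, 150, 153 and 148 across trb45, 260, 267 and 247 across clf29 and 120, 104 and 112 in the combined mutant. No 2 groups overlapped, and the combined mutant was lowest although clf29 was highest. The departure was −0.76 (SE 0.0824, adjusted p = 5.66e-05). NOP56, a core protein of box C/D small nucleolar ribonucleoproteins, stood at 75.8, 74.6 and 72.2 CPM in WT, 46.3, 46.4 and 42.8 across trb45, 98.6, 103 and 102 across clf29 and 38.6, 32.3 and 33.5 in the combined mutant, a departure of −0.83 (SE 0.0956, adjusted p = 0.000103). FIB2, one of the fibrillarins, which methylate pre-rRNA, had the same order of group means, with a departure of −0.62 (adjusted p = 0.0294). Its trb45 libraries, at 23.7 to 34.0 CPM, overlapped the combined mutant at 22.1 to 28.7.

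Other members reached the negative departure by another order of the groups. FIB1 stood at 142 to 146 CPM in WT, 158 to 167 in trb45, 162 to 182 in clf29 and 126 to 148 in the combined mutant (−0.52, adjusted p = 0.00243), so that each single mutant lay above WT while the combined mutant overlapped WT. For AT5G27120, annotated as NOP56-like, trb45 stood at 50.8 to 56.4 CPM and clf29 at 43.3 to 46.6 against 28.7 to 30.9 in WT, and the combined mutant at 40.6 to 49.1 overlapped clf29 (−0.81, adjusted p = 0.000235). EMB2777, a Sas10/U3 ribonucleoprotein family member, overlapped WT in the combined mutant, at 22.6 to 26.9 CPM against 23.8 to 25.1 in WT, 29.3 in each trb45 library and 33.7 to 38.0 in clf29 (−0.79, adjusted p = 0.000234).

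Promoter windows were read from the RefSeq TAIR10.1 genome, 250 bases before to 50 bases after each annotated gene start, and searched for the telobox AAACCCTA on both strands. The motif was found in 5.6% of 19118 windows of tested genes, in 14.1% of the 633 windows of genes below the sum and in 2.26% of the 796 of genes above it. Under the other scalings, filters and tests and with each library left out, the share was between 12.3% and 15.9% for genes below the sum and between 1.82% and 3.07% for genes above. Seen from the motif, 89 of the 1071 genes with a telobox were called below (8.31%) and 18 above (1.68%), and their median departure was −0.127, against −0.009 for the 18047 genes without one. Ribosome assembly genes held the motif in 27.4% and ribosomal protein genes in 36.7%. Of the 932 telobox genes outside those groups, 68 were called below (7.3%) and 17 above (1.82%), with a median of −0.098. The groups rest on product names, so related genes may remain among the 932. Whether the motif or the kind of gene accounts for these shares was not tested. A match is a description of these letters and not evidence of binding, and base composition was not tested.

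The position of the motif also differed in description: 61.4% of the 101 matches in genes below the sum lay after the gene start, against 32.1% of the 1145 matches in all tested genes. The sites of the nucleolar genes described above are shown with up to 11 bases on each side, read along the gene's strand from 5′ to 3′, with the telobox or its reverse complement in capitals.
NUC-L1, chr1:18098071-18098100, plus strand, 2 bases after the start: tacatgttctaAAACCCTAagctgaaaaat
NUC-L1, chr1:18098107-18098130, plus strand, 38 bases after the start: acgcagctgtcTAGGGTTTttcgc
NOP56, chr1:20986951-20986980, minus strand, 17 bases before the start: ttaaacccctgAAACCCTAgtttcgttcgt
NOP56, chr1:20986903-20986932, minus strand, 32 bases after the start: cagtaggtcttTAGGGTTTtagtttcttct
FIB1, chr5:21293929-21293958, plus strand, 207 bases before the start: tcacaaaaataAAACCCTAacttatctttt
FIB1, chr5:21294139-21294168, plus strand, 4 bases after the start: taccaaagcatAAACCCTAaaagccctaaa
FIB2, chr4:13074103-13074132, plus strand, 25 bases after the start: aaaccctgttaAAACCCTAgcttgaaacac
EMB2777, chr2:18099206-18099235, plus strand, 19 bases before the start: taaaaccttacTAGGGTTTtaacgatacgt
AT5G27120, chr5:9540806-9540835, plus strand, 44 bases before the start: gatgcgttttaAAACCCTAggttacaaaaa
The first base of the motif gives the distance, counted as 1 at the start base, and NUC-L1, NOP56 and FIB1 each held a pair of matches in the window.

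**Figure D2:**
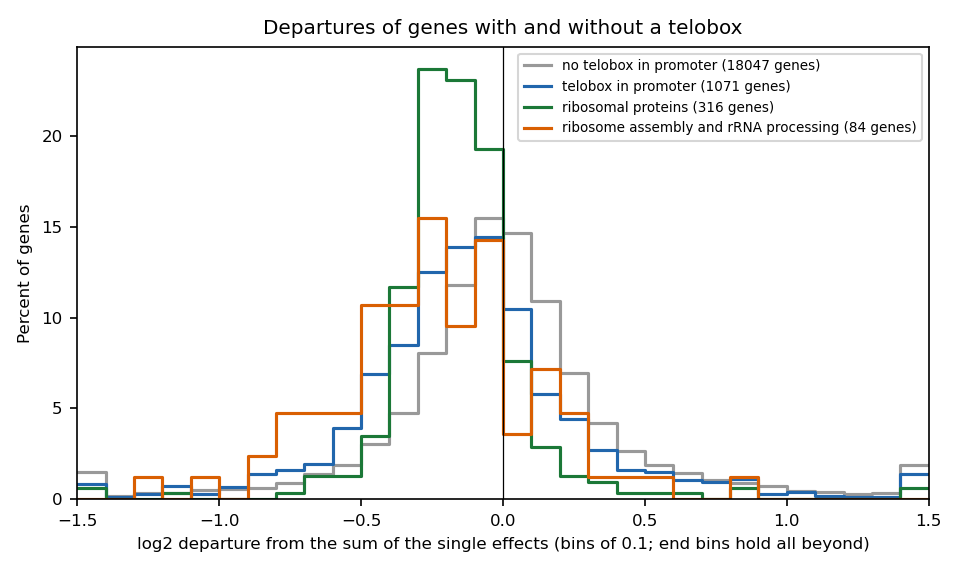
The x axis is the departure (log2, bins of 0.1, with the end bins holding all values beyond) and the y axis the percent of genes in each bin. The curves of the 1071 telobox genes, the 316 ribosomal protein genes and the 84 ribosome assembly genes lie to the left of the 18047 genes without a telobox.

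Process lists were then read against the backgrounds of 4.16% above and 3.31% below. The lists were chosen with earlier results of these data known, so their shares are descriptions and were not tested. The 37 lists hold 759 genes, of which 616 were tested and 131 called. Glucosinolate genes had the highest share, 18 of 25 tested (72%), all above the sum. Iron deficiency genes had 8 of 25, floral repressors 5 of 17 and cytokinin genes 4 of 11, all above. The cytokinin count was 2 without clf29 replicate 1, clf29 replicate 2 or the unnumbered combined-mutant library. SPL phase change factors had 4 of 8, anther genes 4 of 10 and floral MADS-box genes 3 of 20, all below. No gene was called by edgeR among 21 Polycomb and H3K27 demethylase genes, 22 cell cycle genes, 14 DNA damage genes and 4 iron storage genes; at an unadjusted p under 0.05 these lists had 0, 3, 1 and 2 genes, and DESeq2 called 0, 1, 1 and 1.

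**Figure D3:**
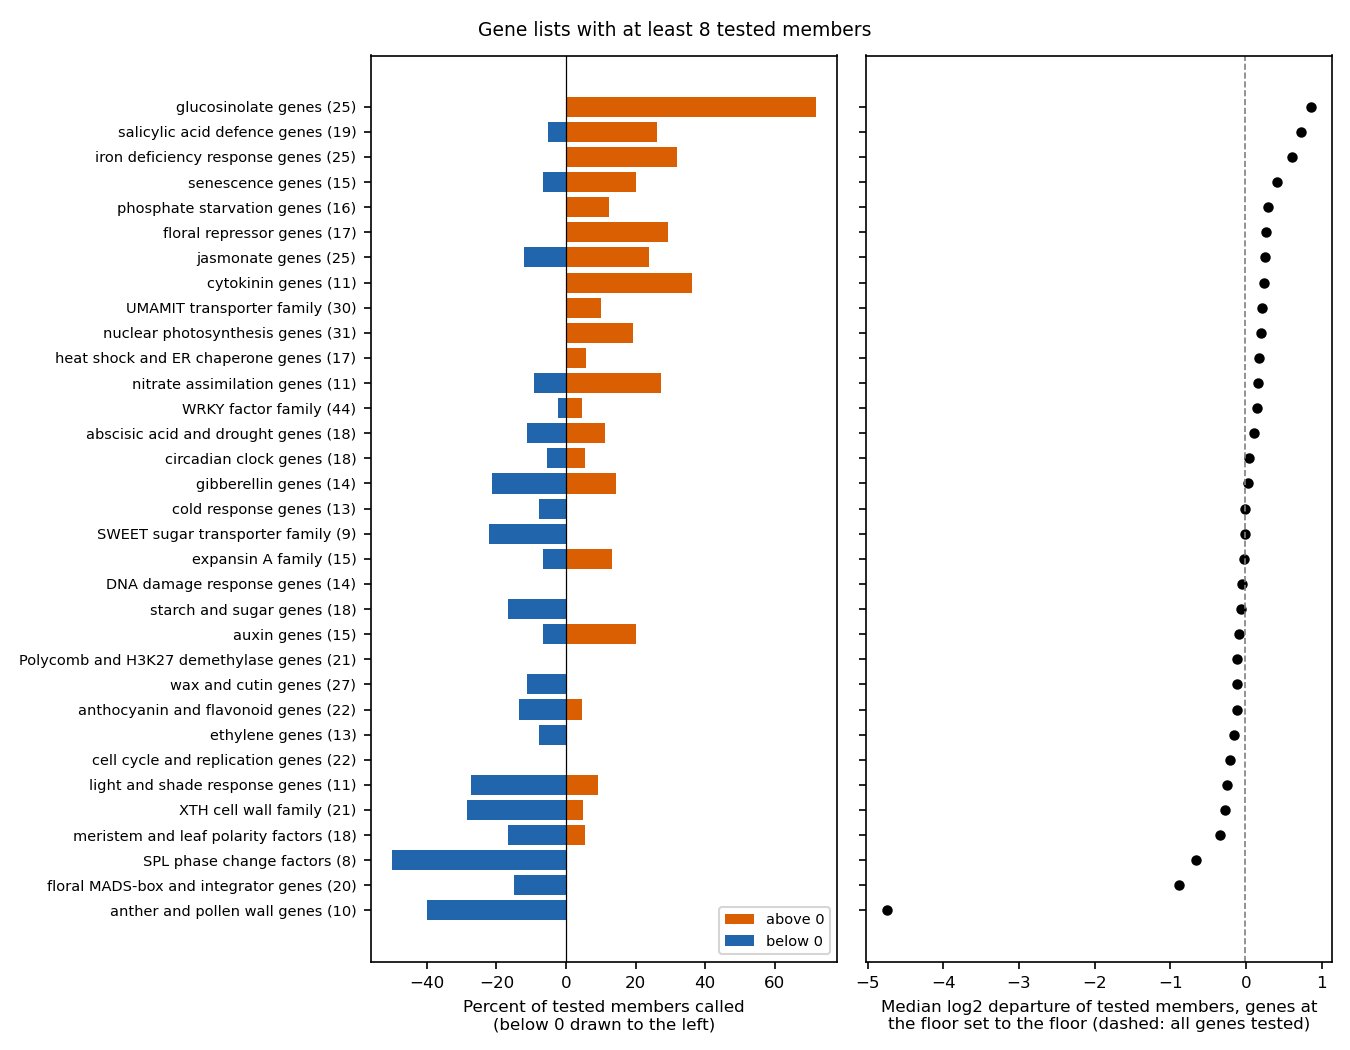
Left, the percent of each list's tested members called above 0 (orange, to the right) and below 0 (blue, to the left), with the number tested in brackets; right, the median departure of tested members (log2), with genes at the detection floor set to that floor. Glucosinolate genes lead at 72% above, and the anther, floral MADS-box and SPL lists lie lowest.

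Glucosinolates are sulfur-rich defence compounds of the cabbage family, made from methionine (aliphatic) or tryptophan (indolic). As a group these genes were lowest in clf29 and higher again in the combined mutant: 15 of 25 were lower in clf29 than in WT (16.2% of all genes were), 22 were higher in the combined mutant than in clf29 (17.2% of all genes were), and 3 were higher and 1 lower in trb45 than in WT (14.5% and 11.2% of all genes). These comparisons share libraries with the interaction and are given as values. The median departure was 0.856. The 7 genes not called, MYB28, MYB29, MYB51, CYP81F2, SUR1, UGT74C1 and IMS2, had departures between 0.126 and 1.385.

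In the aliphatic branch, BCAT4 performs the first transamination of methionine in chain elongation. It stood at 44.1, 39.6 and 43.2 CPM in WT, 49.8, 36.3 and 42.9 across trb45, 24.8, 15.2 and 18.8 across clf29 and 58.9, 103 and 77.3 in the combined mutant. WT and trb45 overlapped, clf29 lay below them and the combined mutant above, at 4 times the level the single effects predict (departure 2.00, SE 0.257, adjusted p = 0.000243). CYP79F1, which converts elongated methionine to aldoximes, stood at 148, 153 and 156 CPM in WT, 171, 142 and 163 across trb45, 105, 84.6 and 97.8 across clf29 and 233, 332 and 295 in the combined mutant (1.52, SE 0.155, adjusted p = 2.98e-05). For both genes the 3 combined-mutant libraries exceeded all others, replicate 1 being the lowest of them. MAM1, the chain-elongating synthase, reached 120, 207 and 169 CPM in the combined mutant, overlapping trb45 at 95.9 to 144, against 104 to 118 in WT and 55.8 to 62.6 in clf29 (1.40, adjusted p = 0.00138). The same branch added IPMI1 (0.86), IPMI2 (1.32), BAT5 (1.05), CYP79F2 (1.34), CYP83A1 (0.71), SOT17 (0.83), SOT18 (0.60), GSTF11 (1.25), GSTU20 (0.65) and FMO GS-OX1 (0.95). The regulator MYB76 (1.34, adjusted p = 0.0491) lost its call in 9 of 12 fits with a library left out. CYP79F1 and CYP79F2 are close copies, so the counting, which is not described, could have split their reads.

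In the indolic branch the combined mutant lay at or under the WT level, with 1 exception. CYP79B3, which makes indole-3-acetaldoxime from tryptophan, stood at 36.0, 36.0 and 34.6 CPM in WT, 40.9, 43.0 and 41.5 across trb45, 11.8, 8.39 and 9.33 across clf29 and 23.6, 26.4 and 26.1 in the combined mutant. The groups did not overlap, and the combined mutant lay between clf29 and WT (1.13, SE 0.132, adjusted p = 0.000112). CYP79B2 had the same order (0.89, adjusted p = 0.000232). MYB34, a regulator of the branch, fell from 12.6 to 16.7 CPM in WT to 6.33 to 7.85 in clf29 and stood at 12.6 to 17.1 in the combined mutant (0.78, adjusted p = 0.0155). CYP83B1 was the exception, at 232 to 245 CPM in the combined mutant against 161 to 204 in WT and 121 to 123 in clf29 (0.56, adjusted p = 0.00569). The count of 18 was 17 to 21 over the fits that left out 1 library.

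**Figure D4:**
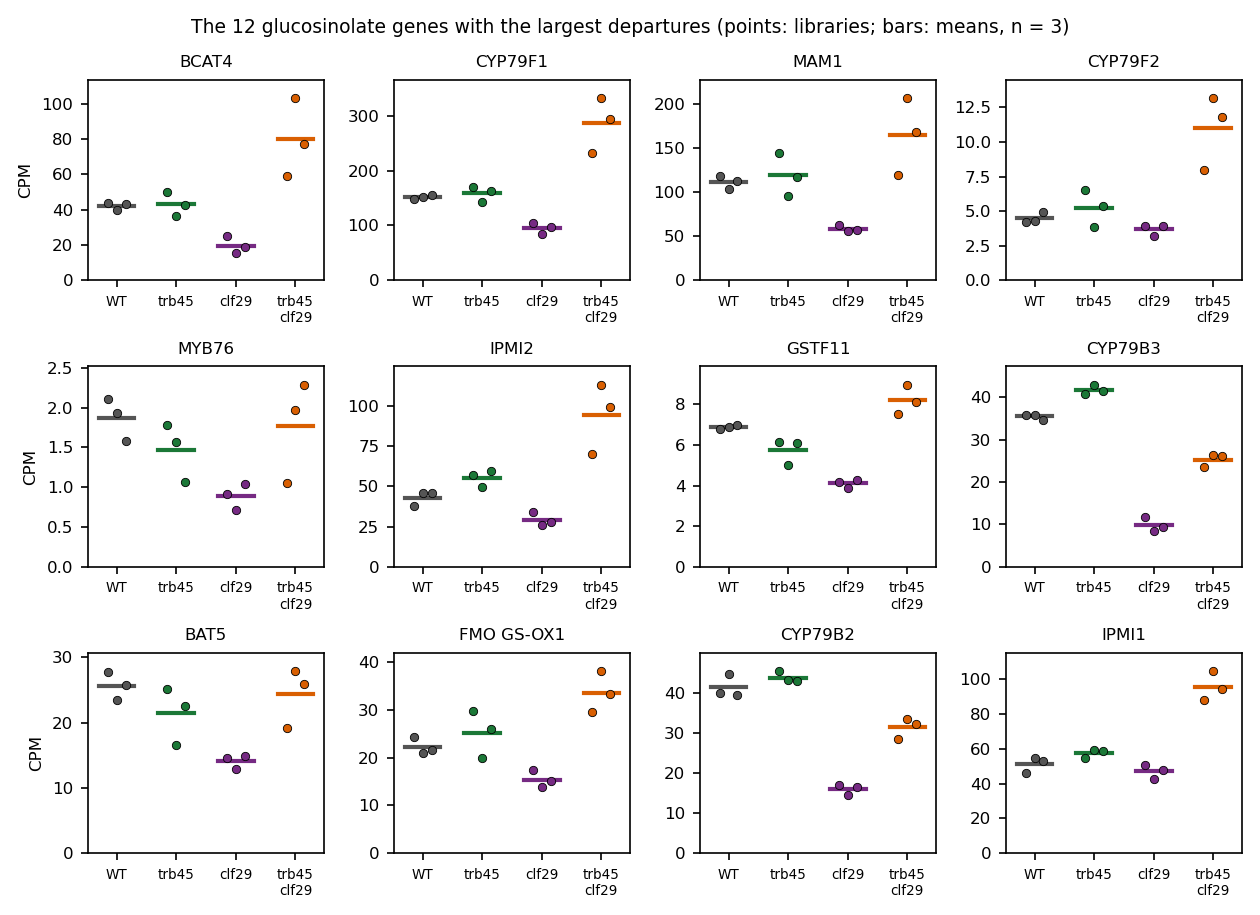
CPM (y axis, from 0) of the 12 glucosinolate genes with the largest departures in each library of the 4 groups; bars are group means, n = 3. In each panel clf29 has the lowest mean, and for BCAT4 and CYP79F1 all 3 combined-mutant libraries exceed all others.

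Iron deficiency in Arabidopsis induces 4 related transcription factors, bHLH38, bHLH39, BHLH100 and BHLH101, together with uptake and transport genes and small IMA peptides. All of these transcription factors were called. BHLH100 stood at 6.89, 6.76 and 6.71 CPM in WT, 26.1, 40.1 and 31.9 across trb45, 0.0750, 0.0387 and 0.0760 across clf29 and 4.07, 2.80 and 3.78 in the combined mutant. The groups did not overlap: the gene was higher in trb45 than in WT, lowest in clf29, and in the combined mutant between clf29 and WT (departure 3.49, SE 0.421, adjusted p = 0.000149). bHLH39 (3.17, adjusted p = 0.000639) and bHLH38 (2.38, adjusted p = 0.00249) followed the same order, and being neighbouring close copies they may share reads. BHLH101 had no count in any clf29 library against 0.352 to 0.757 CPM in the combined mutant, 1.20 to 1.46 in WT and 2.06 to 4.28 in trb45, so that with clf29 set to 3 counts its departure was at least 2.17.

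On the CPM scale these 4 genes lie on the other side. For BHLH100 the mean of the combined mutant minus the sum of the CPM differences was −22.4 CPM, since the rise in trb45 is large in CPM and the clf29 level is low in ratio. The log2 and CPM signs differed in 19 of the 1429 called genes (1.33%), among them BHLH100, BHLH101, bHLH38, bHLH39 and IMA2 (0.67 on the log2 scale, adjusted p = 0.0174). For these genes "above the sum" therefore holds for ratios and not for amounts of transcript.

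The other iron genes called had separate shapes. NAS1, a nicotianamine synthase that makes a metal chelator, stood at 5.86 to 6.14 CPM in WT, 17.1 to 19.2 in trb45, 6.82 to 10.6 in clf29 and 39.6 to 70.3 in the combined mutant (1.15, adjusted p = 0.0101). NAS3 was highest in the combined mutant, at 1.20 to 1.47 CPM against at most 0.781 in any other library (2.15, adjusted p = 0.00674). FRO6, a leaf ferric reductase, fell in each mutant to a like level, 134 to 167 CPM in trb45, 134 to 148 in clf29 and 128 to 177 in the combined mutant, from 230 to 261 in WT (0.76, adjusted p = 0.00432). Of the 25 genes, 17 were higher in trb45 than in WT (14.5% of all genes) and 18 lower in clf29 than in WT (16.2% of all genes), and the single-mutant comparisons share the WT libraries. The count of 8 was 7 to 13 over the fits that left out 1 library, and 13 without trb45 replicate 2. With a replicate block over the 11 numbered libraries it was 5, and NAS1, NAS3 and IMA2 lost their calls. The call of IMA2 was also lost without WT replicate 3 and without trb45 replicate 3.

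**Figure D5:**
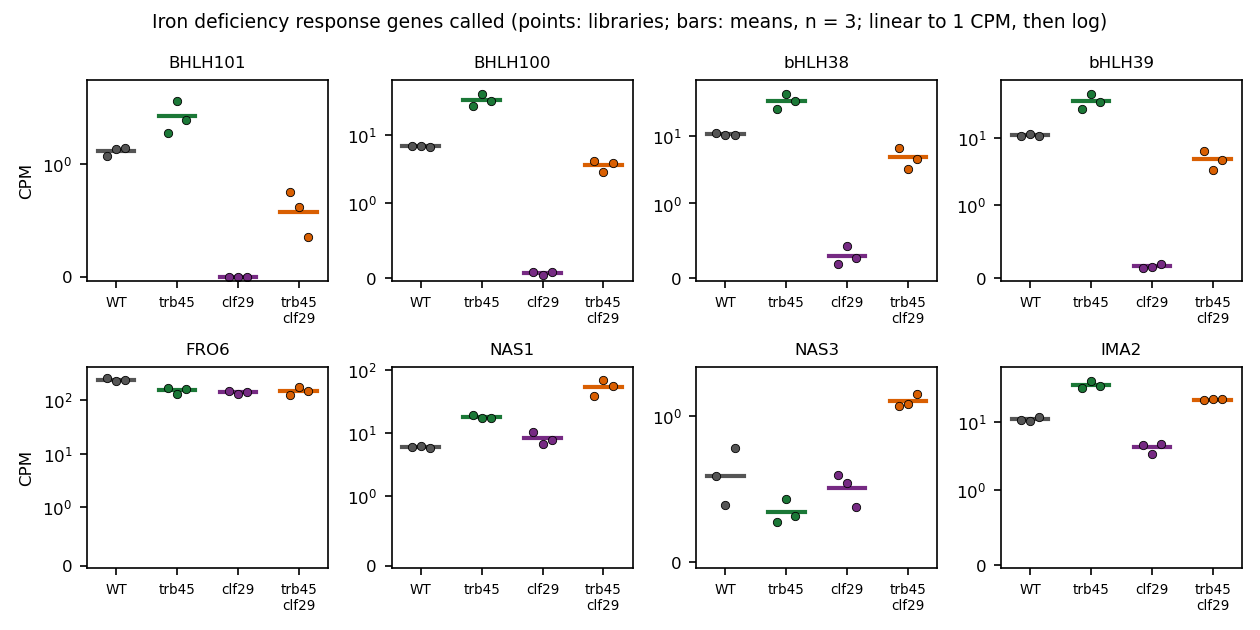
CPM (y axis, linear to 1 CPM and logarithmic above) of the 8 iron deficiency genes called, in each library of the 4 groups; bars are group means, n = 3. The 4 bHLH genes are highest in trb45 and near 0 in clf29, while NAS1 and NAS3 are highest in the combined mutant.

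Jasmonate genes were called on both sides of 0, 6 of 25 above and 3 below, against 4.16% and 3.31% of all genes. Jasmonate is a lipid-derived hormone of wounding and fertility, and its synthesis runs through allene oxide synthase (AOS) and allene oxide cyclases. AOS stood at 154, 170 and 152 CPM in WT, 131, 125 and 122 across trb45, 55.6, 53.0 and 53.4 across clf29 and 124, 161 and 135 in the combined mutant. clf29 lay apart from the rest, and the combined mutant overlapped WT and trb45 (1.70, SE 0.115, adjusted p = 4.08e-07). AOC2 (1.84, adjusted p = 2.17e-05) and AOC1 (2.95, adjusted p = 0.000149), close copies on neighbouring loci, were low in clf29 in the same way. The vegetative storage proteins, which jasmonate induces in leaves, went the other way: VSP1 stood at 0.104, 0.410 and 0.320 CPM in WT, 0.588, 1.22 and 0.716 across trb45, 62.3, 17.8 and 35.6 across clf29 and 0.837, 1.06 and 1.37 in the combined mutant (−6.71, SE 0.784, adjusted p = 0.000112). VSP2 rose and fell likewise (−1.54, adjusted p = 0.0421), a call lost in 8 of 12 fits with a library left out. LOX2, the lipoxygenase that feeds this synthesis in leaves, was higher in clf29, at 700 to 849 CPM against 354 to 494 in WT, and stood at 369 to 409 in the combined mutant (−0.82, adjusted p = 0.00207). LOX3, JAZ3 and TAT3 were also above, and LOX3 lost its call in 8 and JAZ3 in 6 of 12 fits with a library left out. The median of the list was 0.255, and the number above was 4 to 8 over those fits.

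Called flowering and phase change genes fell on both sides of 0: SPL factors and floral MADS-box genes below, repressors of flowering above. SPL factors promote the change from juvenile to adult leaves and to flowering. SPL15 stood at 1.38, 1.53 and 1.101 CPM in WT, 2.91, 2.08 and 2.83 across trb45, 3.41, 2.74 and 2.83 across clf29 and 1.34, 1.41 and 1.72 in the combined mutant, so that either single mutant was raised and the combined mutant overlapped WT (−1.98, SE 0.267, adjusted p = 0.00037). SPL9 (−1.19, adjusted p = 0.00168) and SPL11 (−0.73, adjusted p = 0.00728) were lowest in the combined mutant, at 3.23 to 3.97 and 5.46 to 6.54 CPM against 5.29 to 6.31 and 8.54 to 10.8 in WT. SPL2 (AT5G43270) was also called (−0.80, adjusted p = 0.0453), a call lost in 10 of 12 fits with a library left out. The floral MADS-box genes AGL20 and AGL8 were called below. Over the alternative fits their departures were −1.309 to −1.074 and −1.646 to −1.315, and both kept the call in all 12 fits with a library left out. The repressors of flowering that were called lay above the sum: SNZ, an AP2-type repressor, stood at 15.5 to 22.4 CPM in WT, 10.9 to 17.3 in trb45, 1.64 to 1.94 in clf29 and 3.35 to 5.03 in the combined mutant (1.64, adjusted p = 0.00183). RAP2.7, also called TOE1, fell from 51.2 to 71.3 CPM in WT to 15.1 to 15.9 in clf29 and stood at 26.9 to 38.2 in the combined mutant (1.02, adjusted p = 0.0129). RAV2, also called TEM2, overlapped between clf29 and the combined mutant, 7.42 to 12.4 and 11.8 to 12.5 CPM, with 24.4 to 27.01 in trb45 and 44.1 to 56.4 in WT (1.22, adjusted p = 0.0011). SVP and MAF4 were the other repressors called. Over the alternative fits their departures were 0.599 to 0.814 and 1.762 to 2.723, and both kept the call in all 12 fits with a library left out.

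Of 10 anther genes tested, 4 were called, all below, against 3.31% of all genes. MEE48, also known as A6 and related to the glucanases that release pollen from tetrads, had 5.35 to 7.33 CPM in clf29. It had at most 0.349 CPM in trb45, at most 0.0710 in WT and no count in any combined-mutant library. With the combined mutant set to 3 counts its departure was −9 or lower, a value that also rests on WT levels near the floor. LAP5, a polyketide synthase for the pollen wall, stood at 1.28 to 2.14 CPM in clf29 and at most 0.153 elsewhere (−5.02, adjusted p = 0.00532, lost without trb45 replicate 2), a fitted value that rests on levels near the floor outside clf29. LAP6, a related polyketide synthase, was present in every group, at 1.71 to 2.39 CPM in WT, 2.58 to 3.25 in trb45, 3.21 to 4.40 in clf29 and 2.07 to 2.59 in the combined mutant (−1.28, adjusted p = 0.00439). DRL1 had a departure of −1.63 (adjusted p = 0.0463), and its call was lost in 11 of 12 fits with a library left out. The floral MADS-box gene SEP2 (AT3G02310) was also highest in clf29, at 1.08 to 3.07 CPM in clf29 and 0.0587 to 0.160 in the combined mutant, a departure of −4.09 or lower at the floor of 3 counts. Its call was lost in 6 of 12 fits with a library left out.

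Of 19 salicylic acid genes 5 were above and 1 below, and of 15 senescence genes 3 were above and 1 below. Of all genes, 4.16% were above and 3.31% below. The senescence count above was 1 to 3 over the fits that left out 1 library. SARD1, an activator of salicylic acid synthesis genes, stood at 2.56 to 3.56 CPM in WT, 3.46 to 4.19 in trb45, 0.543 to 1.14 in clf29 and 2.95, 6.56 and 4.76 in the combined mutant (2.20, SE 0.378, adjusted p = 0.00213). NAP, a NAC factor of leaf senescence, stood at 2.25, 3.43 and 3.001 CPM in WT, 0.242, 0.218 and 0.594 across trb45, 1.59, 1.93 and 1.48 across clf29 and 3.67, 4.53 and 4.40 in the combined mutant: trb45 lay below WT, while the combined mutant lay above clf29 (4.34, SE 0.375, adjusted p = 6.32e-06). The salicylic acid gene below was PR5 (−0.48, adjusted p = 0.0432, lost in 8 of 12 fits). Without combined-mutant replicate 1 the number of salicylic acid genes above was 15, and without replicate 2 it was 3. Replicate 1 was the lowest of its group for SARD1, and for TAT3 (0.239 CPM against 17.1 and 10.5), PCR1 (0.0199 against 16.5 and 8.81), LURP1 (5.28 against 56.2 and 31.5) and SAG13 (1.24 against 6.77 and 4.83).

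Of 15 expansin A genes 2 were above the sum and 1 below, and of 21 xyloglucan-modifying XTH genes 1 was above and 6 below. Of all genes, 4.16% were above and 3.31% below. The XTH count below was 2 with the replicate block and 4 to 6 over the fits that left out 1 library. XTH18 lost its call in 8 and XTH24 in 3 of those 12 fits. EXPA8, an expansin that loosens cell walls, stood at 61.0, 63.3 and 56.1 CPM in WT, 22.3, 26.0 and 23.7 across trb45, 8.08, 8.79 and 8.61 across clf29 and 14.4, 18.2 and 18.3 in the combined mutant. Each mutation lowered the gene, and the combined mutant lay above clf29, at 5 times the level the single effects predict (2.32, SE 0.131, adjusted p = 7.1e-08). EXPA1 was also above (1.02, adjusted p = 1.98e-05). EXPA10 was below: it stood at 29.5 to 33.4 CPM in WT, 47.6 to 58.4 in trb45, 54.9 to 61.7 in clf29 and 53.0 to 65.4 in the combined mutant, where the 3 mutants overlapped (−0.76, adjusted p = 0.00164). XTH4 stood at 110 to 119 CPM in WT, 124 to 137 in trb45, 276 to 288 in clf29 and 182 to 195 in the combined mutant (−0.75, adjusted p = 5.66e-05), and XTH15 at 1.20 to 2.81, 0.692 to 1.01, 12.1 to 17.4 and 1.43 to 1.82 CPM in the same order of groups (−1.81, adjusted p = 0.00619). XTH31 was the gene above (1.58, adjusted p = 0.000232).

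Hormone, light and nutrient genes gave single cases. The gibberellin receptor gene GID1A was higher in either single mutant than in WT and overlapped clf29 in the combined mutant, 4.56 to 6.07 CPM in WT, 9.53 to 10.2 in trb45, 10.7 to 13.1 in clf29 and 11.03 to 12.1 in the combined mutant (−1.01, adjusted p = 0.00106). GA3OX1, the last step of gibberellin synthesis, was low in clf29 at 8.36 to 10.1 CPM and at 20.6 to 23.2 in the combined mutant, within the WT range of 20.2 to 23.4 (0.73, adjusted p = 0.00168). The leaf polarity gene REV was raised in trb45 alone, 36.3 to 46.0 CPM against 19.6 to 24.7 in WT, 22.5 to 23.4 in clf29 and 23.2 to 24.0 in the combined mutant (−0.84, adjusted p = 0.001). LBD39, a repressor of nitrate-responsive genes, stood at 6.41 to 7.92 CPM in WT, 22.6 to 26.2 in trb45, 22.0 to 23.9 in clf29 and 35.8 to 40.5 in the combined mutant (−1.098, adjusted p = 6.97e-05). The amino acid transporter family member UMAMIT17 rose with trb45 in both backgrounds and by a larger ratio in clf29 plants, from 8.60 to 9.17 CPM in WT to 19.0 to 25.0 in trb45, and from 2.53 to 4.85 in clf29 to 22.1 to 38.3 in the combined mutant (1.68, adjusted p = 0.00181). Photosystem genes departed little: 6 of 31 nuclear photosynthesis genes were above, against 4.16% of all genes. Each of these 6 was lower in trb45 than in WT, with departures of 0.27 (LHCA2) to 0.52 (PSAF). The number above was 3 without trb45 replicate 3, clf29 replicate 1, clf29 replicate 3 or combined-mutant replicate 2, and at most 8 with another library left out. LHCA2 lost its call in 9 and PSAK in 10 of the 12 fits.

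The genes with the largest departures, named by size among those measurable in both backgrounds, were mostly raised in clf29 alone when below the sum. CSLA01, a mannan synthase family gene, stood at 2.58, 5.70 and 4.67 CPM in WT, 4.48, 3.89 and 4.61 across trb45, 31.9, 18.6 and 23.7 across clf29 and 2.31, 2.28 and 2.84 in the combined mutant (−3.33, SE 0.335, adjusted p = 2.64e-05). AT1G62500 (−9.54), AT5G33370 (−5.63), AT2G20870 (−4.52), MBP2 (−3.87), AT1G44830 (−3.33), AT4G00870 (−2.79), PEL3 (−2.39), AT4G30250 (−2.34) and FAF1 (−2.28) also had their highest mean in clf29. Within clf29, replicate 1 was highest and replicate 2 lowest for VSP1, AT1G62500, AT5G33370, AT2G20870 and MBP2, from 14.3 to 2.55 CPM for AT1G62500. AT2G20870 lost its call without trb45 replicate 2 (adjusted p = 0.0554). AT1G30170 had no count in WT, 0.568 to 0.692 CPM in trb45, 1.71 to 2.40 in clf29 and 1.77 to 2.33 in the combined mutant, a departure of −3.56 or lower.

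Above the sum, AT3G05270, annotated as a filament-like protein, was low in clf29 alone. It stood at 17.9, 15.5 and 16.5 CPM in WT, 20.2, 17.0 and 17.3 across trb45, 1.67, 1.53 and 1.26 across clf29 and 15.9, 17.8 and 18.7 in the combined mutant. The combined mutant overlapped WT and trb45 and was 10.7 times the level the single effects predict (3.42, SE 0.156, adjusted p = 9.42e-09). QQS, a gene that affects leaf starch and protein content, was low in clf29 (0.0760 to 0.187 CPM), higher in the combined mutant (0.359 to 0.744) and highest in WT (2.12 to 3.93), with a departure of 3.44 (adjusted p = 0.0021). AT1G76960 was high in the combined mutant alone, 5.52 to 12.9 CPM against at most 1.07 elsewhere (3.96, adjusted p = 0.00219). PCR1 (6.46), TAT3 (6.36) and LURP1 (5.50) had the spread within the combined mutant described above. The calls of PCR1 and TAT3 were lost with the replicate block. The remaining named genes were AT4G13575 (4.97), AT4G13572 (4.11) and HTA4 (3.82), all lowest in trb45.

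Of the genes with the largest fitted departures that were not measurable in one background, MEE48 is described above. AT3G01345 stood at 345 to 358 CPM in WT and at most 0.528 CPM in any mutant library. AT3G23770, ABCG26, an exporter needed for the pollen wall, and AT1G54020 were above the floor of 3 counts in all libraries of clf29 only, at 1.16 to 1.73, 0.618 to 1.54 and 0.348 to 1.01 CPM, and had no count in the combined mutant.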

How the data were processed

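Read counts per gene locus, as deposited by the authors in one table of 12 columns, were used without change. The counting program and annotation are not given in the sources used here. The submitters' processing notes name HISAT2, DESeq2 and TAIR10 without versions or roles. Columns were matched to samples by name; 1 trb45 clf29 column is unnumbered and entered as the third library of its group. Of 28775 genes, 19138 passed edgeR's filterByExpr (minimum count 10, minimum total 15). A model with 4 group means was fitted with TMM scaling and the quasi-likelihood test (edgeR 4.0.16, limma 3.58.1, R 4.3.3), with Benjamini-Hochberg adjustment over all genes tested. The interaction is the combined mutant minus clf29 minus trb45 plus WT. The procedure was tested on simulated data. Library totals, from 45519206 to 54215882 counts, limit the precision of low genes. Counting error is only part of the spread between libraries.

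A gene counted as measurable with a mean of at least 0.5 CPM in WT or trb45 and in clf29 or trb45 clf29. The text names the 12 largest departures on each side with a mean of at least 1 CPM, the 5 largest not measurable, and the members of process lists. A group with at most 3 counts in each library was set to that floor, and the departure is then given as a bound. Members and lists were chosen with earlier results of these data known. The groups by product name, the 6 genes whose sites are printed and the chromosome 4 neighbours were chosen after their values were seen. Alternatives were other scalings, filters and thresholds, DESeq2 1.42.0, a replicate block, leaving out each library, and sums on CPM. Close copies (bHLH38 and bHLH39, AOC1 and AOC2, VSP1 and VSP2, CYP79F1 and CYP79F2) may share reads, and the strand setting of the counting is not given. Promoter windows came from the RefSeq TAIR10.1 assembly; gene symbols came from its annotation, matched by locus code.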

Additional observations from a re-analysis of the deposited data

Results flagged for a closer look

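The interaction tests whether the trb45 effect differs between CLF backgrounds, and 1429 genes passed it at an adjusted p under 0.05 in edgeR's quasi-likelihood test. The following genes are singled out because the trb45 effect on them differed between WT and clf29 plants. They are the 12 largest departures on each side as named above, less BHLH101 and AT1G30170. Those genes had a group at the floor of 3 counts, so their departures are bounds, given above. Below the sum of the single effects, the log2 departure was −9.543 for AT1G62500, −6.713 for VSP1, −5.628 for AT5G33370, −4.52 for AT2G20870, −3.865 for MBP2, −3.331 for CSLA01, −3.33 for AT1G44830, −2.786 for AT4G00870, −2.391 for PEL3, −2.336 for AT4G30250 and −2.283 for FAF1. Above it, the log2 departure was 6.458 for PCR1, 6.359 for TAT3, 5.496 for LURP1, 4.973 for AT4G13575, 4.335 for NAP, 4.112 for AT4G13572, 3.963 for AT1G76960, 3.816 for HTA4, 3.487 for BHLH100, 3.435 for QQS and 3.423 for AT3G05270. PCR1 and TAT3 lost their calls with the replicate block, and both varied widely within the combined mutant.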

How the results depend on the processing

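The 1429 calls (796 above, 633 below) were 1425 with RLE scaling, 1459 with library size alone (606 above, 853 below), 1439 without a filter on low counts, 1456 with a mean of at least 10 counts and 1910 with DESeq2, which shared 1423 of them. The median of all departures was −0.0144 with TMM, −0.0212 with RLE and −0.0601 with library size alone. An adjusted p under 0.01 left 585 genes (347 above, 238 below), and an absolute departure of at least 1 left 439 (264 above, 175 below). Leaving out 1 library gave 949 to 1926 genes, 540 to 1110 above and 373 to 816 below. The count below 0 was 373 without WT replicate 3, 401 without trb45 replicate 3, 418 without clf29 replicate 3 and 409 without the unnumbered combined-mutant library; the cause was not tested. With a replicate block over the 11 numbered libraries 657 genes were called (392 above, 265 below), of which 642 were shared, and 949 without the block over the same libraries. Deviations from the group mean were compared between libraries of different groups. For same-numbered libraries r was −0.255 to 0.322 over 15 pairs, above 0.1 in 2. Those 2 pairs joined WT and trb45, with 0.273 for replicate 1 and 0.322 for replicate 2. For different numbers r was −0.294 to 0.242 over 30 pairs, above 0.1 in 3. Deviations within a group of 3 are not independent, so this check cannot tell whether same-numbered libraries were handled together. A fit with trb45 replicate 2 as the one trb45 library was an alternative chosen after seeing the data. Its number of calls is not given, because 1 library shows no spread within its group. Its single-gene results are part of the tally below. Departures computed on mean CPM kept the sign of 1410 genes. Of 2963 results of single genes under alternatives, 2598 kept direction and side of the threshold, 363 lost the call, 2 gained it and 0 reversed. Only named or listed genes already called in the main fit and the mutated genes entered this tally. It could therefore show losses, but gains only for CLF and TRB4. Low counts limit bounds at the floor of 3 counts, and 3 libraries per group limit the spread estimate.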

Other observations

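Several genes above the sum lay close together on chromosome 4 and were lowest in trb45; they were picked out after their values were seen. AT4G13495, a noncoding RNA gene, had means of 93.4 (WT), 6.79 (trb45), 91.9 (clf29) and 50.9 CPM (combined mutant; n = 3 each, log2 departure 2.92, adjusted p = 2.17e-05). HTA4 (AT4G13570), which encodes a histone H2A, had means of 5.72, 0.160, 5.81 and 2.34 CPM in the same order of groups (3.82, adjusted p = 1.43e-05). AT4G13572 had means of 6.58, 0.173, 4.05 and 1.81 CPM (4.11, adjusted p = 6.47e-06), and AT4G13575 had means of 17.2, 0.254, 16.0 and 7.64 CPM (4.97, adjusted p = 7.19e-08). In each of these 4 genes all combined-mutant libraries lay above all trb45 libraries. AT4G13560 had the same order of means, 1.22, 0.0479, 0.854 and 0.279 CPM (2.96, adjusted p = 0.0213), but its combined-mutant replicate 1, at 0.0797 CPM, lay under trb45 replicate 3, at 0.0873. The nearby AT4G13500 (departure 0.067, adjusted p = 0.818) and AT4G13590 (0.002, adjusted p = 0.995) were not called, while AT4G13540, which lies between them, was below the sum with clf29 highest (−1.56, adjusted p = 0.00218).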
